A study of Gasterosteus aculeatus with 16 samples.

Results

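The stickleback gene set used for this study holds 639 nuclear gene models whose locus spans at most 110 nt, out of 22456 gene models in all, and these short models are described here. They were chosen by locus length alone, and models on the mitochondrial genome were left out. Their lengths ran from 32 to 110 nt with a median of 84 nt. RNA came from whole threespined stickleback (Gasterosteus aculeatus) embryos at 3 days post-fertilization, pooled within a clutch, with 1 clutch per mother. The 8 clutches of predator-exposed mothers, which experienced simulated predation risk, are called maternally-stressed embryos, and the 8 clutches of untreated mothers are called control embryos. The stage, the pooling and the whole-embryo homogenate were the same in both groups. In such bulk RNA, fewer cells of a type and less RNA per cell cannot be told apart. The deposited values are of 2 kinds. FPKM, which scales fragments to the length of the model and to the fragments mapped in the library, was given for every model. logCPM, the log2 of CPM (read counts scaled to the library total) with a moderating prior, was given for 17440 genes, 57 of them short models.

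Gene models of this size are mostly annotated for RNAs that are not translated, such as the hairpins from which microRNAs are cut, transfer RNAs, small nuclear RNAs and small nucleolar RNAs, many of which lie in introns of other genes. A microRNA binds target transcripts through a short seed and lowers their translation or stability, whereas small nucleolar RNAs guide the chemical modification of ribosomal RNA. Ribosomal RNA itself is transcribed from tandem repeats in which the 5.8S gene lies between the genes of the small and large subunit. These classes generally lack a poly(A) tail, and the libraries were made from RNA selected with oligo(dT). The files pair none of the short models with a name. The gene table of the study names ENSGACG00000022193 as ola-mir-9a-1, a hairpin of miR-9, a microRNA of the vertebrate nervous system, and its text calls ENSGACG00000022837 and ENSGACG00000022725 microRNAs. The study reported all of these as differentially expressed, using other tests than the one used below. In maternally-stressed embryos it found miR-9a lower, and ENSGACG00000022837 and ENSGACG00000022725 higher. The other models are called here by their identifiers and lengths.

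Reads recovered from the logCPM values came to between 8950867 and 12765406 per clutch (median 11697268), and where a model had no read, counting error alone leaves room for 3 reads (0.235 CPM in the deepest clutch and 0.335 CPM in the shallowest). CPM below is recovered reads scaled to the total of reads in genes of that clutch. The prior adds 2.77 CPM to each gene, so a fold change on the logCPM scale is smaller than the ratio of CPM for weakly counted models.

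Most short models had no value on either measure. FPKM was listed at 0 in all 16 clutches for 586 of the 639 models (91.7%), it was above 0 in at least 1 clutch for 53, and it was above 0 in all clutches for 21. The logCPM table held 57 models, of which 21 were among the 53 with FPKM and 36 were not, so 550 models (86.1%) had neither value. On FPKM, longer models were more often above 0. FPKM above 0 in at least 1 clutch was found for 54.9% of the 463 nuclear models longer than 110 and up to 120 nt, for 65.7% of the 872 models longer than 110 and up to 200 nt and for 98.9% of the 20601 models above 500 nt. The logCPM table did not follow length in this way, since it held 8.92% of the short models, 0.864% of those longer than 110 and up to 120 nt, 8.26% of those longer than 110 and up to 200 nt and 83.4% of those above 500 nt. Of the 221 models of 61 to 80 nt, 32 (14.5%) were in the logCPM table and 6 (2.71%) had FPKM, whereas of the 299 models of 81 to 100 nt, 23 (7.69%) were in the logCPM table and 39 (13.0%) had FPKM, with 20 distinct sets of values. Among the 107 models above 100 nt, 1 was in the logCPM table.

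**Figure D1:**
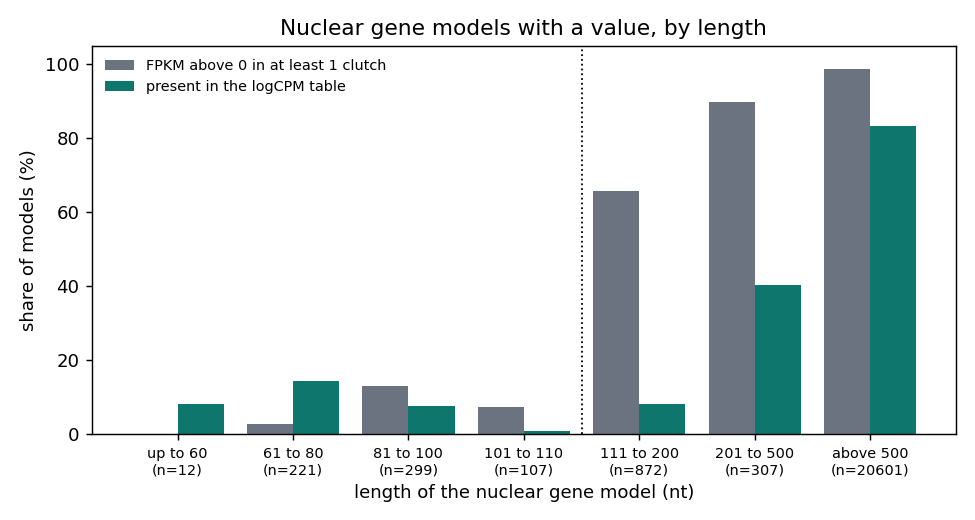
Share of nuclear models whose FPKM exceeded 0 in 1 or more clutches (grey bars) and present in the logCPM table (green bars), in percent, by length of the model in nt, with the number of models under each class and a dotted line at the limit of 110 nt. The FPKM share is at most 13.0% in each class of short models and 65.7% in the next class.

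The models were unevenly spread over the genome. Coordinates are those of the stickleback genome BROADS1. Unplaced scaffolds held 145 of the short models, groupIV (a linkage group) held 102 and groupIII held 58. When models whose starts lay within 10 kb of each other were joined, 413 models fell into 96 clusters, and 64 of these clusters had no value for any model on either measure. The 4 largest clusters without values held 153 models, or 27.8% of those with neither value. The first was groupIII:6476385-6493728 with 25 models, 23 of them of 107 nt, at a median spacing of 711 nt between starts. A pair of clusters on groupIV, at 28133726 to 28163787 and at 28177108 to 28195701, held 41 and 36 models, among which lengths of 77 nt (13 and 12 models) and 83 nt (12 and 12 models) were the most frequent. The cluster on scaffold_464, between 97 and 16954, held 51 models, with 13 of 77 nt and 13 of 83 nt. The clusters on groupIV and on scaffold_464, an unplaced scaffold, therefore shared lengths of 77 nt and 83 nt. None of the models in the 4 clusters was in the logCPM table.

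The 21 models with FPKM in every clutch carried only 6 distinct sets of FPKM values, and models that share both length and values are called copies here, without their sequence having been seen. The 6 models of 88 nt had identical FPKM in each clutch, as had the 5 models of 81 nt and the 4 models of 86 nt, while the 5 models of 92 nt carried 2 sets of values with means of 16448 FPKM and 16444 FPKM. Models with identical values are treated as 1 measurement below. The method behind FPKM divides ambiguous fragments among loci by probability, whereas the reads behind logCPM were counted per gene. The remaining model, ENSGACG00000022161, was 91 nt long and lay at scaffold_80:34819-34909. The other 20 lay on scaffold_54, scaffold_88, scaffold_515, scaffold_554, scaffold_571 and scaffold_606, mostly in 1 arrangement. Centres of the 88-nt and 81-nt models were 448.5 to 450.5 nt apart on all 5 scaffolds that held both. Centres of the 81-nt and 92-nt models were 1162 to 1170 nt apart on 4 scaffolds, and centres of the 86-nt and 92-nt models 947 to 951 nt apart on 3. Exceptions were the 86-nt model of scaffold_554, 6678 nt from the 88-nt model there, and ENSGACG00000022725, which had no other short model beside it.

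On scaffold_515 the 88-nt model (ENSGACG00000022869, 1834 to 1921), the 81-nt model (ENSGACG00000022836, 2286 to 2366) and an 86-nt model (ENSGACG00000022905) lay inside a model of 1651 nt, ENSGACG00000018064 (1776 to 3426). The 92-nt model ENSGACG00000022158 lay outside it. Beyond the 92-nt model, at 2128 to 2229 nt between centres on 5 scaffolds, came a model of 154 or 156 nt. Mean FPKM was 8946 to 9381 for those of 154 nt and 58.3 for the 156-nt model on scaffold_606. The model at this position on scaffold_54, ENSGACG00000021780 (8028 to 8181), is named 5.8S ribosomal RNA in the gene table of the study. On these 5 scaffolds short models thus stood at nearly constant distances from a model of 154 or 156 nt. The one on scaffold_54 is annotated for ribosomal RNA. None of the 20 short models carries such a name, and their identity was not tested.

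**Figure D2:**
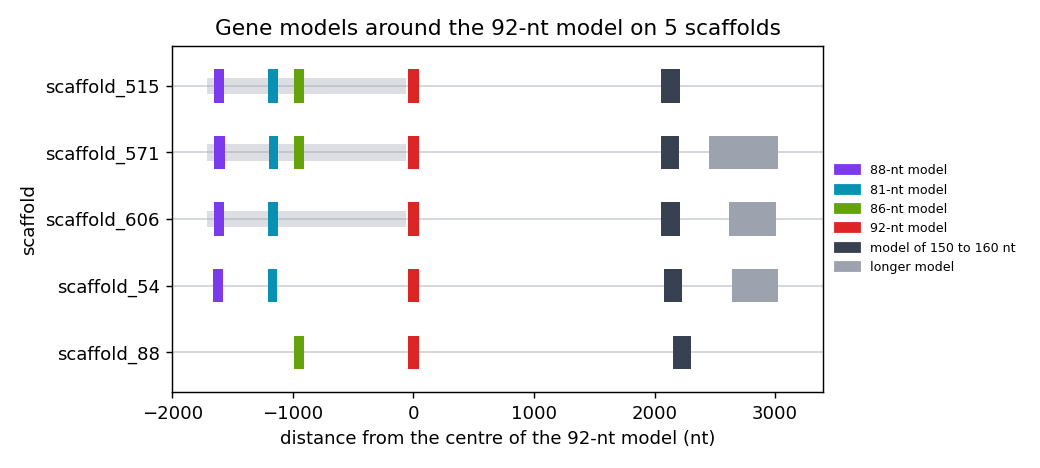
Gene models around the 92-nt model on 5 scaffolds, drawn to scale as distance in nt from its centre, with each scaffold turned so that the model of 150 to 160 nt lies to the right. Colours mark the 88-nt, 81-nt, 86-nt and 92-nt models, dark bars the models of 150 to 160 nt, and grey bars longer models. The order is the same on every scaffold that holds the same models, and the spacing nearly so.

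Maternally-stressed embryos had higher mean FPKM than control embryos in all 6 sets, with the groups overlapping in each, and no set passed the test at FDR 0.05. The 92-nt models were the highest, and 3 of the 5 copies (ENSGACG00000022144 at scaffold_54, with ENSGACG00000022146 and ENSGACG00000022158) ranged from 7506 to 42105 FPKM (median 24881) in maternally-stressed embryos and from 4742 to 28852 FPKM (median 7104) in control embryos. The means were 22573 ± 12275 FPKM and 10315 ± 8480 FPKM (SD, n = 8 clutches per group), and the log2 fold change was 1.22 (SE 0.43, limma adjusted p = 0.127). On this scale, log2(FPKM + 1), the median log2 fold change over all models tested was -0.08. The control clutch 15_2 was the highest control clutch and stood above 6 of the 8 maternally-stressed clutches.

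The 5 models of 81 nt (ENSGACG00000022726 and its copies) showed the smallest adjusted p among the short models. Their FPKM ranged from 589.8 to 3241 (median 1766) in maternally-stressed embryos and from 297.4 to 1482 (median 467.3) in control embryos, and 8 of 8 maternally-stressed clutches were above the control median. The log2 fold change was 1.44 (SE 0.39, limma adjusted p = 0.0785), which missed FDR 0.05 and would pass FDR 0.1. With single clutches left out it ran from 1.28 (without exposed clutch 10_5) to 1.65, and only 3 leave-outs changed the call. Without control clutch 15_2 it was 1.65 with a limma adjusted p of 0.0273. Without exposed clutch 3_10 it was 1.63 with 0.0289, and without exposed clutch 6_21 it was 1.58 with 0.0464. The call for these 5 copies therefore turned on single clutches.

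The 4 models of 86 nt (ENSGACG00000022757 and its copies) varied most between clutches, from 24.8 FPKM in control clutch 21_14 to 1312 FPKM in exposed clutch 10_5. Their means were 738.7 ± 382.9 FPKM in maternally-stressed embryos and 308.7 ± 308.5 FPKM in control embryos (SD, n = 8), with a log2 fold change of 1.69 (SE 0.59, limma adjusted p = 0.127). The 91-nt model ENSGACG00000022161 had 10106 ± 5375 FPKM and 4858 ± 3925 FPKM in the same order (log2 fold change 1.14, SE 0.42, adjusted p = 0.145). The 6 models of 88 nt, among them ENSGACG00000022837 and ENSGACG00000022725, had 585.6 ± 364.7 FPKM and 317.2 ± 240.8 FPKM, with 0.89 on the log2 scale (SE 0.45, adjusted p = 0.274). This was the smallest difference of the 6 sets, and the 88-nt models were the only ones of the 6 with an unadjusted p above 0.05.

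The sets rose and fell in the same clutches. The 6 highest clutches for the 92-nt, 91-nt, 81-nt and 86-nt models were 10_5, 24_28, 26_28, 8_10 and 17_10 of the maternally-stressed group and 15_2 of the control group, and for the 88-nt models 5_21 took the place of 17_10. The ratio of 92-nt to 91-nt FPKM stayed between 1.97 and 2.63 over the 16 clutches. That of 92-nt to 86-nt FPKM ran from 19.3 to 191.2. The 91-nt model lies on another scaffold, but ambiguous fragments were divided among loci, so its values need not be independent of the others. The model annotated as 5.8S ribosomal RNA, ENSGACG00000021780, had the same 6 highest clutches, with 15797 ± 14913 FPKM in maternally-stressed and 2095 ± 3990 FPKM in control embryos (log2 fold change 3.05, limma adjusted p = 0.0822). The part of ribosomal RNA content of the libraries in the levels of the short models was not tested.

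**Figure D3:**
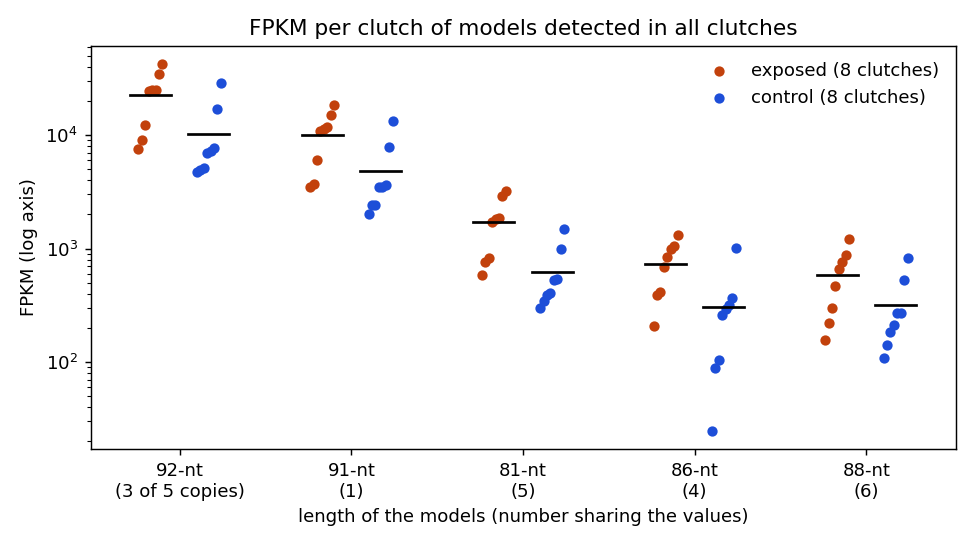
FPKM (log axis) of the short models detected in all clutches, 1 point per clutch, with maternally-stressed (exposed) clutches in orange, control clutches in blue and the group mean as a black line. The number of models that share the values is given under each length. In every set the exposed mean is higher, as with 22573 against 10315 FPKM for the 92-nt models, and the points of the 2 groups overlap.

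In all, 38 short models reached FPKM above 0 in 2 or more clutches and entered the limma test, as 19 distinct sets of values. At FDR 0.05, 0 of the 38 were called, beside 65 of 21028 models overall (0.309%). At an unadjusted p under 0.05 there were 15, all higher in maternally-stressed embryos, beside 20.8% of all models in either direction, 3.22% higher and 17.6% lower. The 15 carry 5 sets of values and do not count as 15 independent measurements. Of the 38 models, 33 had a higher fitted mean in maternally-stressed embryos. The median log2 fold change of the 38 was 1.12, beside -0.08 over all models tested. Models with identical values count repeatedly in both figures for the 38, and 16 of the 38 had FPKM in only 2 to 6 clutches. For 0 of the 38 models did the groups not overlap, beside 0.204% of all models.

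The other 32 models with FPKM did not have it in every clutch, and all but 1 had it in few. ENSGACG00000022564 (92 nt, groupX:14113049-14113140) was above 0 in 12 clutches, 7 of them maternally-stressed, with 80.1 ± 51.4 FPKM in maternally-stressed and 53.9 ± 48.3 FPKM in control embryos (SD, n = 8) and a log2 fold change of 1.61 (SE 1.31, limma adjusted p = 0.502). The remaining 31 were above 0 in 1 to 6 clutches, and 15 of them in a single clutch. High values in single clutches were frequent among them. ENSGACG00000022602 (64 nt, groupVII) had 1712 FPKM in control clutch 15_14 and was listed at 0 in the other 15, and ENSGACG00000021689 (67 nt, groupXIV) had 815.7 FPKM in control clutch 5_14 alone. ENSGACG00000022343 (79 nt, groupXIV) had 148.0 and 158.4 FPKM in exposed clutches 24_28 and 6_21 and was listed at 0 in all others. Shared values occurred here too, as in 3 models of 87 nt on groupIX (ENSGACG00000022764, ENSGACG00000022796 and ENSGACG00000022845) and in pairs of 81 nt, 97 nt and 107 nt.

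The recovered reads gave another picture of the same models. Of 832 values (52 models in the logCPM table without FPKM in every clutch, in 16 clutches), 790 had at least 1 read but FPKM listed at 0, 35 had both, 2 had FPKM without a read and 5 had neither. As many as 150 reads stood beside an FPKM of 0. For ENSGACG00000022602, the 1712 FPKM in clutch 15_14 stood beside 11 reads, and reads were present in 14 clutches. An FPKM of 0 therefore did not mean absence of reads for these models. The opposite held for the models with FPKM in all clutches. None of the 92-nt and 91-nt models, at means of 7482 FPKM or more, was in the logCPM table, and of the 5 of these models that were in it, 48 of 80 values had FPKM above 0 without a read. How reads that match several positions were treated in the counts behind logCPM was not tested.

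**Figure D4:**
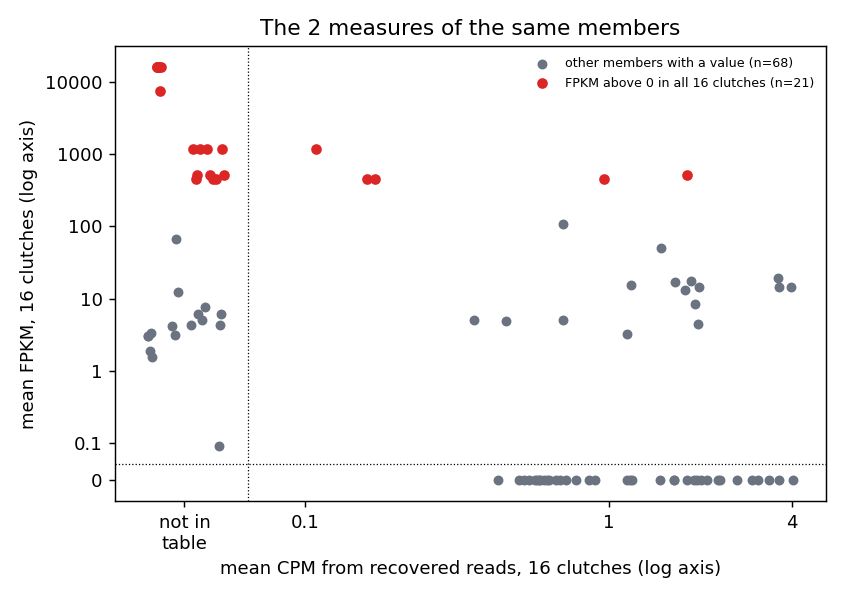
Mean FPKM over 16 clutches against mean CPM from recovered reads (both log axes) for the 89 short models with a value on either measure, with models that are not in the logCPM table left of the vertical dotted line and models with FPKM 0 in all clutches under the horizontal one. The 21 models with FPKM in all clutches (red) lie above the others, and 16 of them are not in the logCPM table.

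The 57 models in the logCPM table held 15561 reads in total, with 20 to 742 reads per model (median 217), and 48 of them had a read in every clutch. Per kb of model, the highest were ENSGACG00000022748 (71 nt, groupIII:16031842-16031912) with 56.9 CPM per kb, ENSGACG00000022847 (66 nt, scaffold_196) with 55.2, and ENSGACG00000022420 (67 nt, groupVII) with 46.1. ENSGACG00000022748 was also close to equal between groups, with 2.91 to 4.89 CPM (median 3.88) in control and 3.14 to 6.18 CPM (median 3.84) in maternally-stressed embryos, and a log2 fold change of 0.01 (SE 0.09). Like it, ENSGACG00000022644, ENSGACG00000022847 and ENSGACG00000022574 differed by at most 0.06 on the log2 scale of logCPM, and their direction changed when single clutches were left out.

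Models with reads mostly lay in clusters, as did short models in general, and often inside longer genes. Of the 57, 47 lay in a cluster of 2 or more short models, beside 413 of all 639 short models. Wholly within a longer model lay 27 (47.4%), against 132 (22.7%) of the 582 that were not in the logCPM table. The largest read count of a cluster was on groupVIII, at 13813643 to 13816971, where 5 of 9 models of 62 to 87 nt were in the logCPM table with 1944 reads, 10.1 ± 1.96 CPM in maternally-stressed and 11.1 ± 2.39 CPM in control embryos (SD, n = 8). None of these lay inside a longer model. On groupVII, at 7740501 to 7743151, all 4 models of 64 to 67 nt lay inside ENSGACG00000019819 and held 1341 reads, 6.42 ± 2.17 CPM and 8.19 ± 2.50 CPM in the same order. On groupXI, at 13201447 to 13201785, a pair of models inside ENSGACG00000013514 held 1062 reads. That longer model itself had a mean FPKM of 0.090 and no logCPM value.

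The 27 models lay in 18 longer models, most of which were themselves abundant. Mean FPKM of the 18 had a median of 2201 (range 0.090 to 5550), and 17 of them were above 3.69, the median of nuclear models above 500 nt. Of the 16 that were in the logCPM table, 0 passed FDR 0.1 in limma. ENSGACG00000019819, which holds 4 short models, had 181.8 ± 34.7 CPM in maternally-stressed and 187.5 ± 29.1 CPM in control embryos. ENSGACG00000015957, which holds ENSGACG00000021689 and ENSGACG00000022451, had 5288 ± 238 CPM and 5133 ± 366 CPM (SD, n = 8). Whether reads of the longer transcript entered the counts of the short models was not tested.

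On logCPM, 0 of the 57 short models passed FDR 0.1 in limma, beside 90 of 17440 genes (0.516%). At an unadjusted p under 0.05 there were 6, of which 3 were higher and 3 lower in maternally-stressed embryos, beside 16.3% of all genes, 3.28% higher and 13.0% lower. With voom on the recovered reads the count was 0, and 5 models fell under an unadjusted 0.05. The shares of all genes with voom are not given here, so these counts stand without a background. Over the 57 the median log2 fold change was -0.04, beside -0.05 over all genes, with 22 higher and 35 lower. For 0 of the 57 did the groups not overlap, beside 0.172% of all genes.

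The smallest p belonged to ENSGACG00000022193 (ola-mir-9a-1, scaffold_1181:2978-3069, 92 nt), which was lower in maternally-stressed embryos. It had 2, 6, 6, 6, 7, 10, 3 and 4 reads in exposed clutches 10_5, 14_28, 17_10, 24_28, 26_28, 3_10, 6_21 and 8_10. In control clutches 13_14, 15_14, 15_2, 15_5, 20_28, 21_14, 5_14 and 5_21 it had 15, 10, 21, 19, 14, 21, 7 and 8 reads. Scaled to depth, control clutches 15_14, 5_14 and 5_21 (0.818, 0.555 and 0.674 CPM) fell within the range of the maternally-stressed clutches, 0.198 to 0.933 CPM, and the other control clutches were above it. The means were 0.469 ± 0.230 CPM and 1.32 ± 0.635 CPM (SD, n = 8), a ratio of 0.354. On the logCPM scale the log2 fold change was -0.33 (SE 0.08, limma adjusted p = 0.112), short of FDR 0.1. With single clutches left out it ran from -0.37 (without control clutch 5_14) to -0.28 (without control clutch 15_2), and only 3 leave-outs changed the call. Without exposed clutch 3_10 the limma adjusted p was 0.05, without 8_10 it was 0.0684, and without control clutch 15_14 it was 0.0660. Its FPKM was listed at 0 in all clutches, so the test on FPKM did not include it.

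ENSGACG00000022855 (81 nt, scaffold_80:44260-44340) had the largest rise among models with reads in at least 8 clutches. It lies on the scaffold of the 91-nt model described above. Its CPM ranged from 0.653 to 4.56 (median 2.92) in maternally-stressed and from 0.283 to 3.24 (median 0.806) in control embryos, and its 6 highest clutches were 10_5, 17_10, 24_28, 8_10 and 26_28 of the first group and 15_2 of the second. The ratio of means was 2.28, and the log2 fold change on logCPM was 0.45 (SE 0.16, limma adjusted p = 0.194). With single clutches left out it ran from 0.38 (without exposed clutch 10_5) to 0.54. The call changed only without exposed clutch 3_10, with 0.54 and a limma adjusted p of 0.0757. These 6 clutches, taken from CPM, were those that were highest on FPKM for the 92-nt, 91-nt, 81-nt and 86-nt models. The FPKM of ENSGACG00000022855 itself did not follow them. It was listed at 0 in 10_5, 26_28 and 15_2, beside 46, 31 and 29 reads, and was highest in control clutch 13_14 at 24.7.

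Among the better counted models, ENSGACG00000022390 (72 nt, groupVII:7724629-7724700) had 2.27 to 3.84 CPM (median 2.40) in maternally-stressed and 1.44 to 3.00 CPM (median 1.88) in control embryos, a ratio of means of 1.36 and a log2 fold change of 0.20 (SE 0.08, limma adjusted p = 0.213). ENSGACG00000021715 (83 nt, groupVIII:13815641-13815723) ran the other way, with 1.87 to 3.74 CPM (median 3.25) and 3.24 to 4.15 CPM (median 3.54), with -0.16 on the log2 scale of logCPM (SE 0.08, adjusted p = 0.310). Its neighbour ENSGACG00000022831 (74 nt) stood at 0.21 (SE 0.11, adjusted p = 0.351), so models of 1 cluster differed in sign without passing the test. ENSGACG00000022352, ENSGACG00000022654, ENSGACG00000022678 and ENSGACG00000022790, the others with the largest differences in each direction, lay between -0.26 and 0.15 with adjusted p of 0.378 to 0.571 in limma.

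ENSGACG00000022383 (70 nt, scaffold_101:340638-340707) owed its difference to 1 library. It had 150 reads in control clutch 21_14, or 13.2 CPM, and 4 to 24 reads in each of the other 15 clutches. Its log2 fold change was -0.29 (SE 0.23, limma adjusted p = 0.554) with that clutch and -0.03 without it.

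**Figure D5:**
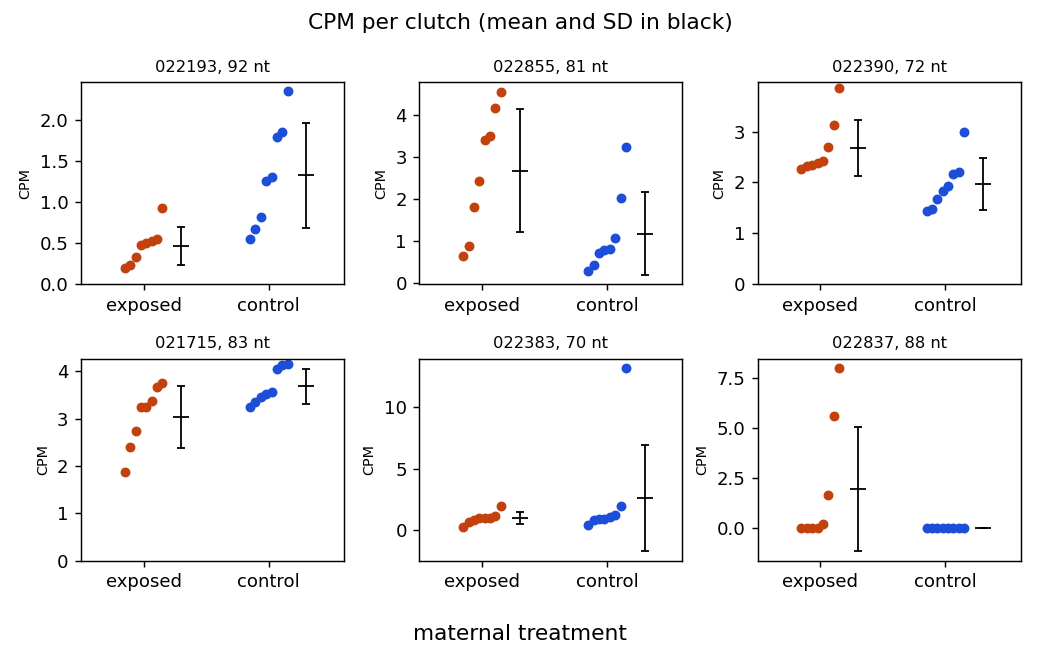
CPM from recovered reads of 6 short models (last 6 digits of the identifier and length above each panel), 1 point per clutch for maternally-stressed (exposed, orange) and control (blue) embryos, with the mean and SD in black. The groups overlap in every panel, as for ENSGACG00000022193 with means of 0.469 and 1.32 CPM, and the high values lie in 1 clutch for ENSGACG00000022383 and in 3 for ENSGACG00000022837.

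The models with FPKM in all clutches that were in the logCPM table had reads in few clutches, unlike their FPKM. ENSGACG00000022837 (88 nt, scaffold_54:4288-4375) had 81 reads in exposed clutch 10_5, 67 in 24_28, 19 in 17_10 and 2 in 8_10, and 0 in the other 12 clutches, control clutches included. Against the floor of 3 reads per control clutch (0.269 CPM on average), the mean of 1.93 CPM in maternally-stressed embryos was at least 7.18-fold higher. Without clutch 10_5 it was at least 3.94-fold higher, and 4 of the 8 maternally-stressed clutches were at 0 themselves. The study left genes out of the logCPM values if they had no counts, or counts in a single sample at low CPM. Without control reads, this model entered through maternally-stressed clutches alone, so the fold is descriptive and no support for a difference. The log2 fold change on logCPM was 0.54 (SE 0.24, limma adjusted p = 0.284). On FPKM, where its values were identical to those of 5 other models, control clutches had 108.0 to 822.6 FPKM. The same model was thus at 0 in every control clutch on one measure and above 0 in every control clutch on the other.

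ENSGACG00000022725 (88 nt, scaffold_54:21189-21276), with the same FPKM, had 20 of its 28 reads in maternally-stressed embryos in clutch 8_10, and 2 reads in control embryos, a ratio of 13.4 with a 95% exact binomial interval of 3.38 to 116.1 for counting error only, and of 4.39 without clutch 8_10. The interval for ENSGACG00000022725 pools reads over clutches and leaves out the spread between clutches. ENSGACG00000022869 had 23 of 26 reads in exposed clutch 10_5 and 2 in control embryos, a ratio of 12.4, and of 1.61 without clutch 10_5. Its control reads lay in clutch 20_28 alone, at 0.18 CPM. It thus passed the filter on the logCPM values through maternally-stressed clutches, so its ratio is descriptive and no support for a difference. With clutches as the unit, the log2 fold change on logCPM was 0.12 for ENSGACG00000022725 (SE 0.08, limma adjusted p = 0.459). For ENSGACG00000022869 it was 0.11 (SE 0.10, limma adjusted p = 0.581). ENSGACG00000022836 (81 nt) had 20 reads in exposed clutch 17_10 and 0 elsewhere, and its mean of 0.218 CPM was below the floor, so no fold is given. It too entered the logCPM values through that clutch alone. ENSGACG00000022725, ENSGACG00000022869 and ENSGACG00000022836 thus each drew their reads mainly from 1 clutch, which was 8_10, 10_5 and 17_10 in that order. Clutch 10_5 also held the most reads of ENSGACG00000022837, with 81, followed by 24_28 with 67. ENSGACG00000022797 (86 nt, scaffold_88:49502-49587) was the exception, with reads in all 16 clutches, 2.07 ± 1.40 CPM in maternally-stressed and 1.55 ± 0.657 CPM in control embryos (SD, n = 8) and a log2 fold change of 0.12 (SE 0.15, limma adjusted p = 0.701).

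Summed over all short models, the measures differed in the same way. FPKM above 0 was present in 23 to 30 models per clutch in maternally-stressed and 23 to 29 in control embryos. Their summed FPKM ranged from 48052 to 257915 (median 151807) in maternally-stressed and from 29295 to 174386 (median 43770) in control embryos, between 3.09% and 16.1% of all FPKM of a clutch, and the 21 models with FPKM in all clutches made up at least 94.5% of it in every clutch. The sums behind these shares count models with identical values repeatedly. With each set of identical values counted once, the sums were 58567 ± 31561 FPKM and 27312 ± 21596 FPKM (SD, n = 8). Reads in short models summed to 83.7 ± 10.3 CPM in maternally-stressed and 85.9 ± 9.87 CPM in control embryos (SD, n = 8), a difference below the spread between clutches, or 780 to 1154 reads in a clutch. These sums were not tested.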

How the data were processed

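Libraries of oligo(dT)-selected RNA were read single-end. Before trimming, reads were longer than most short models and nearly as long as the longest. An untrimmed read could therefore not lie wholly within most short models. The authors mapped trimmed reads to BROADS1 using TopHat2 2.0.8 and deposited FPKM from Cufflinks 2.1.1 and logCPM, a log2 value from edgeR. The library kit keeps strand, but strand settings are not given in the sources used here. For FPKM, ambiguous fragments were divided among loci by probability; for logCPM, reads were counted per gene. Starts in the files count from 0 and were raised by 1. FPKM bounds were not used.

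Rows were joined by identifier and locus. Whole reads were recovered from the log2 values the authors deposited, to within 3.8e-09 of a read. The comparison of groups used limma 3.58.1 in R 4.3.3 (two-sided, Benjamini-Hochberg) on log2(FPKM + 1) at FDR 0.05, for models above 0 in at least 2 clutches, and on logCPM at FDR 0.1, over all models. The limma fits were tested on simulated normal values, with changes added only to models above the median level. Models with many zeros or identical values were not reproduced there, so that test cannot speak for them. Figures were drawn with matplotlib 3.10.9. The members and lists were chosen with earlier results of these data known. Models named are those with the 10 highest levels, the 5 largest differences in each direction among models above 0 in at least 8 clutches, those the study names and those with identical values; ENSGACG00000022797 and the clusters were picked after their values were seen. Alternatives were other pseudocounts, filters, scalings and thresholds, voom, clutches sharing the second number of their name as a replicate block, and each clutch left out; collapsing identical rows was added after seeing the data. That number is not explained in the labels and is partly confounded with exposure. The tank of each mother is not known, so clutches were treated as independent. No sequence was used.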

Additional observations from a re-analysis of the deposited data

Results flagged for a closer look

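Dixon's test at the 95% level was run on each group of 8 clutches with at least 4 values above 0, for every short model in the logCPM table, every distinct set of FPKM values and the sums per clutch. Of 130 groups, 18 held a clutch far from the other 7, where about 6.5 (1 in 20) would come by chance for independent, normal values. Counts of a few reads are skewed and some models share reads or clusters, so this comparison cannot show an excess. The 86-nt models (ENSGACG00000022757) had 1008 FPKM in control clutch 15_2, beside 370.7 in the next control clutch. All others were read counts.

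In control clutch 15_2, ENSGACG00000022740 had 6.592 CPM, beside 2.443 in the next, and ENSGACG00000022815 had 0.8938 CPM. In control clutch 21_14, ENSGACG00000022383 had 13.22 CPM, beside 2.022 in the next, and ENSGACG00000022730 had 1.763 CPM. Control clutch 15_5 stood out for ENSGACG00000022420, ENSGACG00000022791 and ENSGACG00000022826, with 6.42, 5.665 and 2.077 CPM. ENSGACG00000022847 had 5.982 CPM in control clutch 5_21, and ENSGACG00000022381 was low in control clutch 5_14 with 1.19 CPM.

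Among maternally-stressed clutches, 10_5 had 2.279 CPM of ENSGACG00000022869, beside 0.08704 in the next, and 1.288 CPM of ENSGACG00000021035. Clutch 8_10 had 1.663 CPM of ENSGACG00000022725 and 1.996 CPM of ENSGACG00000022381. The other cases were ENSGACG00000021104 in 14_28 (1.202 CPM), ENSGACG00000022748 in 17_10 (6.18 CPM), ENSGACG00000022826 in 3_10 (1.772 CPM) and ENSGACG00000022874 in 24_28 (3.167 CPM).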

How the results depend on the processing

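No short model was called on FPKM or logCPM with other pseudocounts, filters or scalings, with voom, or with identical FPKM rows collapsed, and with clutches of the same second name number as a replicate block the counts were also 0 in each direction. At FDR 0.1 on FPKM, 5 copies of 81 nt, which share 1 set of values, were called higher. In this section copies count repeatedly, and the shares of all models called under the same settings are not given. The counts are therefore no result about the short models. With 1 clutch left out, calls on FPKM ran from 0 to 10 higher (10 without control clutch 15_2, 5 without exposed clutch 3_10 or 6_21) and stayed at 0 lower, and on logCPM from 0 to 1 higher (without 3_10) and 0 to 1 lower (without 3_10, 8_10 or 15_14). Models with log2 fold changes near 0 changed sign: ENSGACG00000022748 to -0.01 under the block and between -0.05 and 0.04 with 1 clutch left out, ENSGACG00000022847 to 0.02 with median-of-ratios scaling and between -0.09 and 0.01, ENSGACG00000022644 between -0.02 and 0.11, and ENSGACG00000022574 between -0.03 and 0.06. The difference in models detected per clutch was 1 and became 116.1 with models of 130 nt or less, and that in summed FPKM was 75040 and became 8508 with models of 90 nt or less, which leaves out the 92-nt and 91-nt models. The models in the logCPM table held 20 to 742 reads each over all clutches, and the effect of depth on the calls was not tested.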
